A study of Mus musculus with 8 samples.

Results

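Mitotic and G2/M genes, which encode the machinery that carries a cell from the end of DNA replication through chromosome segregation and cytokinesis, were followed in double positive thymocytes with and without Cre-dependent expression of a mutant STING. The 53 genes were taken by symbol from a list of mitotic kinases and cyclins, checkpoint, kinetochore, spindle, condensin and anaphase-promoting complex genes, and all 53 were found among the 55359 genes of the tables. RNA sequencing had been done on 8 samples of thymocytes from mice aged 5 weeks, sorted for CD4 and CD8 together (the DP stage) and for surface TCR beta that was absent, low or intermediate. The 4 control samples (replicates 1 to 4) had the genotype LSL-Sting1-N153S/+ and the 4 Lck-cre samples (replicates 5 to 8) the genotype LSL-Sting1-N153S;Lck-cre. Both groups therefore carried the LSL allele, in which a loxP-flanked stop sequence blocks the Sting1 N153S coding sequence, an activating form of the innate immune adaptor STING, until Cre removes it, and the controls carried no Cre. Cre was driven by the Lck promoter, which acts from early T cell progenitors onwards, so recombination may precede the stage that was sorted. No group carried Cre without the LSL allele, so effects of mutant STING and of Cre itself cannot be told apart. Replicates 1 and 5 were female and the other 6 samples male. The labels do not say whether the samples came from separate animals, and p-values therefore refer to the spread between samples, which may be technical.

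Cells enter mitosis when CDK1 bound to cyclin B is activated, and they leave it when the anaphase-promoting complex (APC/C) marks cyclin B and securin for destruction and separase cuts cohesin. Many genes of this machinery are transcribed as a wave late in the cycle, under the MuvB core complex with B-MYB and FOXM1, and are repressed in resting cells by the DREAM complex. In the thymus, cells divide rapidly after beta selection while they pass from the double negative through the immature single positive stage into the early DP stage, and most DP cells are then small and do not divide while they rearrange the TCR alpha locus.

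Sting1 was checked first. It lay at 15.3, 11.6, 13.4 and 11.9 FPKM (mapped fragments scaled to gene length and library size) in control replicates 1 to 4 and at 221, 85.4, 130 and 232 FPKM in Lck-cre replicates 5 to 8. The log2 change was 3.52 (SE 0.25, adjusted p = 0.00213 by limma), and every Lck-cre sample lay above every control. Without read counts the total depth is unknown. The lowest mean coverage per base of a mitotic gene in any sample was 22.7, in Cdc25c. Markers of the DP stage included Rag1 at 802 ± 71.4 FPKM in the controls (SD, n = 4).

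Every role group among the 53 genes held genes that were higher in the Lck-cre samples. Of the APC/C and cohesin genes outside the 53, 5 of 17 and 6 of 15 rose. Of the 53 genes, all of which passed the filter on low values, 46 rose, 0 fell and 7 did not pass an adjusted p of 0.05 by limma, where 15.4% of all 12337 tested genes rose, 10.4% fell and 25.8% changed in either direction. Of all 3180 called genes 59.8% were higher. With TPM in place of FPKM this split turned over, to 38.6% of 3367 called genes (10.5% of tested genes rose and 16.8% fell), while 40 of the 53 mitotic genes rose. It was 52.9% under quantile normalization and 52.6% with median-of-ratios scaling. The median log2 change of the 53 genes was 0.46, with a range of -0.01 to 0.69, against a median of 0.01 over all tested genes, and 52 of the 53 estimates were above 0. In 41 of the 53 genes all Lck-cre samples lay above all controls, as they did in 17.1% of tested genes, and in 0 was the reverse true, as it was in 12.3% (29.4% in either direction). In bulk samples a change in the number of dividing cells and a change in mitotic RNA per cell cannot be told apart. The 7 genes that did not pass were Cdc25b, Cenpe, Cenpf, Kif20b, Smc4, Pttg1 and Mki67.

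Summed over the 53 genes, the level was 2108, 2572, 2730 and 2786 FPKM in control replicates 1 to 4 and 3162, 3102, 3493 and 4022 FPKM in Lck-cre replicates 5 to 8. The female control was thus the lowest sample, and Lck-cre replicate 8 the highest. Control replicate 1 had the lowest value of all 8 samples in 52 of 53 genes, and Lck-cre replicate 8 the highest in 46. Within the Lck-cre group, replicate 6 was the lowest in 34 genes and replicate 5, the female, in 18. Replicate 6 also had the lowest Sting1 level of its group and replicate 8 the highest, but replicate 5 was close to replicate 8 in Sting1 and well under it in the mitotic sum. A link between the Sting1 level and the mitotic genes was not tested.

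**Figure D1:**
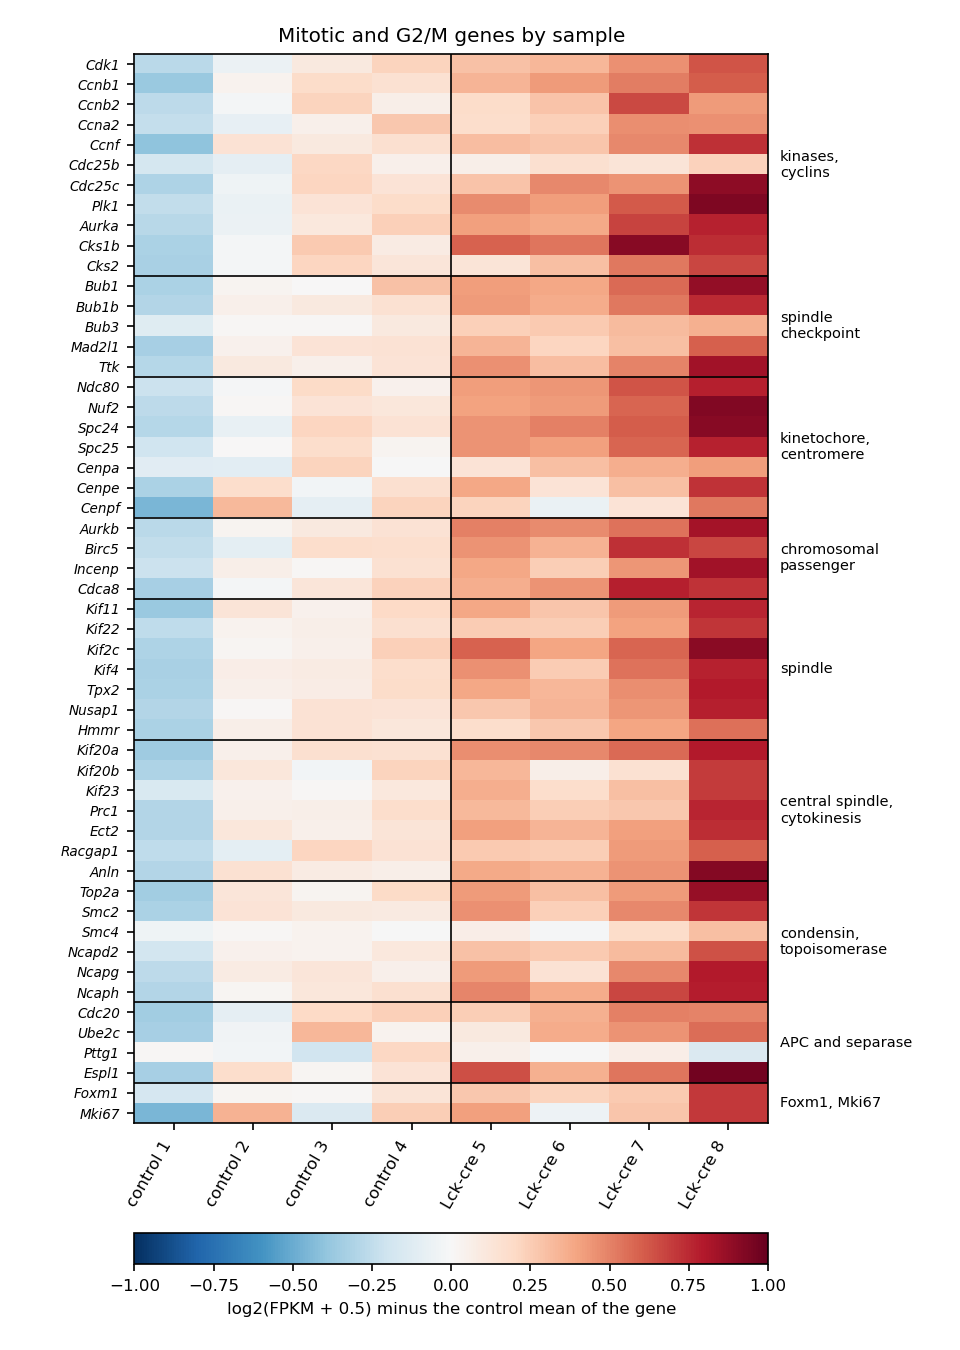
Log2(FPKM + 0.5) of each of the 53 mitotic and G2/M genes in each sample, minus the gene's mean over the 4 controls, with genes grouped by role and samples in columns. Control 1 is the column that is blue in nearly all genes, and Lck-cre 8 is the darkest red in 46 of 53.

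Far fewer genes passed when the females were left out. In a fit of all samples without the sex term 44 of 53 passed, when 16.3% of all tested genes rose. With the 6 males alone, or without either female, which leaves the same 3 males against 3 males informative, 13 of the 53 genes passed, and 3.37% of all tested genes rose with the males alone. These 13 were Ccnb1, Plk1, Aurka, Cks1b, Bub1b, Ndc80, Nuf2, Spc24, Spc25, Aurkb, Cdca8, Kif20a and Ncaph, and they passed under every alternative that was run. The size of the difference moved less: the median log2 change was 0.39 with the males alone, and in 45 of the 53 genes the Lck-cre males all lay above the control males, as in 21.7% of tested genes. Without control replicate 2, 28 of the 53 genes passed, when 6.82% of all tested genes rose. With no filter on low values 15 passed, when 2.41% of 28851 genes rose.

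**Figure D2:**
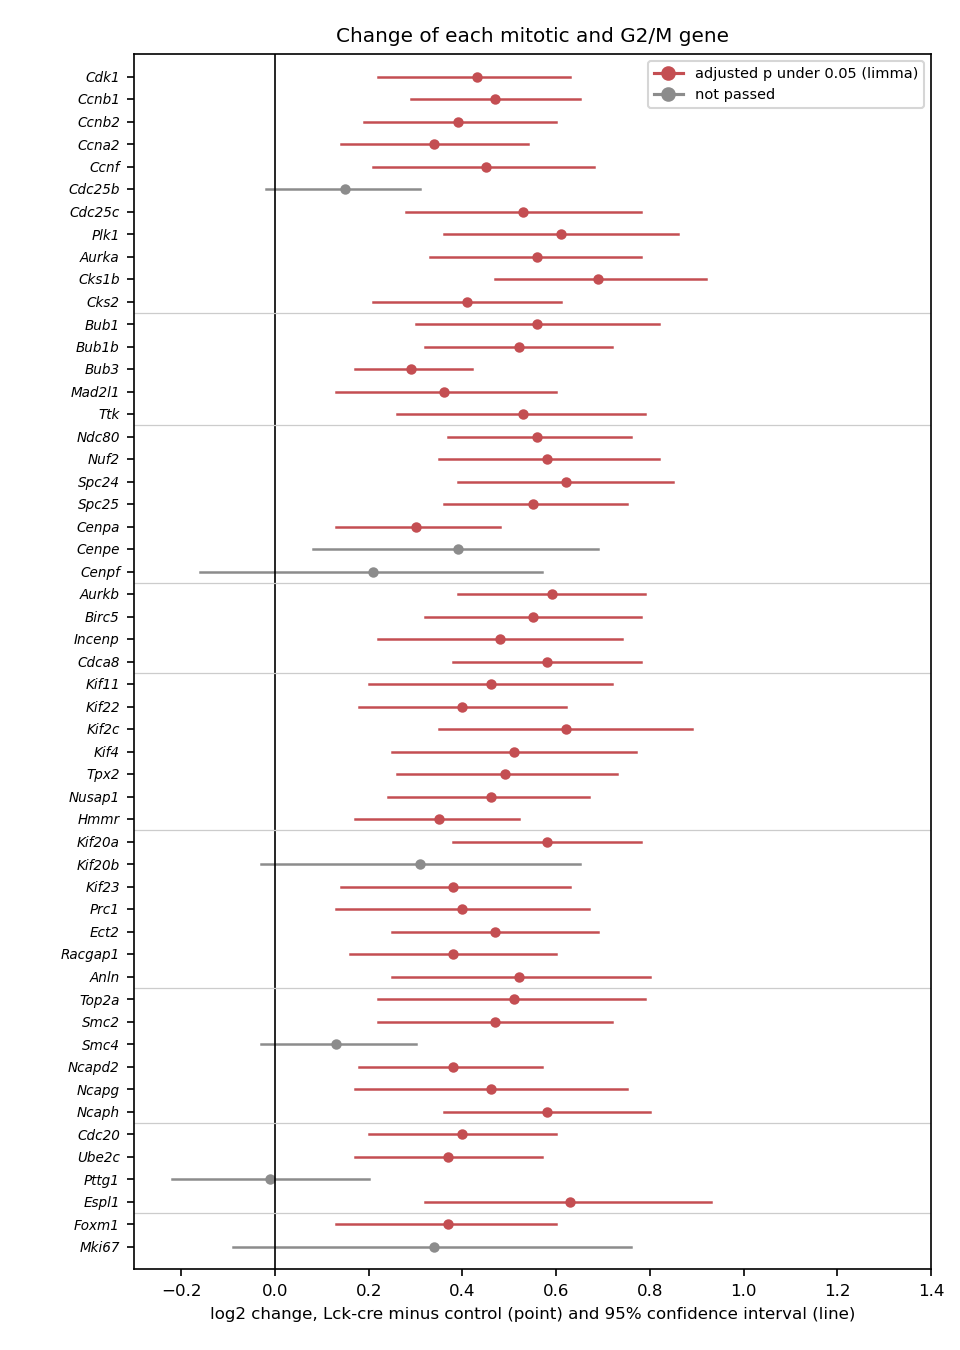
Log2 change (Lck-cre minus control) of each of the 53 genes with its 95% confidence interval from limma, with red for the 46 genes that passed an adjusted p of 0.05 and grey for the 7 that did not. Estimates run from -0.01 for Pttg1 to 0.69 for Cks1b.

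The promoters were examined for the 2 elements of late cell cycle genes, as a feature on which the choice of genes did not rest. These are the CHR (cell cycle genes homology region), the site of the MuvB complexes, searched as TTTGAA or TTTAAA, and the CCAAT box, the site of NF-Y. Both strands were searched in RefSeq promoters of the assembly GRCm38.p6, which cover the bases from 250 before to 50 after each transcript start. Promoters were given for 44 of the 53 genes. The windows below are the 110 bases before the start, 5′ to 3′ on the strand of the gene, with CHR and CCAAT matches on either strand in capitals (TTCAAA and ATTGG are matches on the opposite strand). They are shown for 6 genes that rose, among them the kinase, its cyclin and the largest change, and for Pttg1, which did not. The Pttg1 start used here may lie inside the gene, in which case its window is not the promoter. Positions are chr13:100786487-100786596 (minus strand) for Ccnb1, chr10:69352913-69353022 (minus) for Cdk1, chr4:118437344-118437453 (minus) for Cdc20, chr7:122159325-122159434 (plus) for Plk1, chr3:89418292-89418401 (minus) for Cks1b, chr7:131560260-131560369 (plus) for Bub3 and chr11:43425982-43426091 (minus) for Pttg1.
Ccnb1: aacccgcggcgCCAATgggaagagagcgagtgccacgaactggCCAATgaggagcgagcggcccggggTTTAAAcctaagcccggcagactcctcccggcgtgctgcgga
Cdk1: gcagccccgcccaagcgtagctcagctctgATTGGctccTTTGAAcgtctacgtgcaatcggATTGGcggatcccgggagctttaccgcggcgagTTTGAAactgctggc
Cdc20: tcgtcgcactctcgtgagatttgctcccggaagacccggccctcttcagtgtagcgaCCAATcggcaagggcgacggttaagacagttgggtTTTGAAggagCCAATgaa
Plk1: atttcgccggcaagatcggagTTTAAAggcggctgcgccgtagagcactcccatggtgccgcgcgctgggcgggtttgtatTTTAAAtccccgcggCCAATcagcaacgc
Cks1b: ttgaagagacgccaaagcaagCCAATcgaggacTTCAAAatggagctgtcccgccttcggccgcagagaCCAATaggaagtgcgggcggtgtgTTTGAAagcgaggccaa
Bub3: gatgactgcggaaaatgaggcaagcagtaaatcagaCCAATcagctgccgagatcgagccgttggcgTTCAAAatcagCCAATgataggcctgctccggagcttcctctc
Pttg1: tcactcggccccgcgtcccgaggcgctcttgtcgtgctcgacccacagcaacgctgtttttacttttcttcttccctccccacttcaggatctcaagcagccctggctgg

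The 6 windows of genes that rose each hold both elements, and the Pttg1 window holds neither, but the windows were picked for display. In their whole promoters Mad2l1, Nuf2, Nusap1 and Ncaph rose with neither element, and Cenpe, Cenpf and Mki67 did not pass and had both. From the other start of Bub3 its matches lie at -198, -167 and -156, outside such a window. In the whole promoters, 36 of the 44 genes (81.8%) had a CHR match, against 22.3% of 8394 tested genes and 30.6% of all 27025 genes with a promoter of this length. A CCAAT match was found in 34 (77.3%), against 43.8% of tested genes and 41.1% of all. Both were present in 31 (70.5%), against 9.38% and 12.2%. The matches lay in different places. Of 58 CHR matches, 20 were in the 100 bases before the start and 24 after it, while of 85 CCAAT matches 52 were in the 100 bases before the start and 4 after it. These were counted over 47 promoters. Bub3, Ect2 and Prc1 have overlapping promoters, so their shared sites are counted more than once, at shifted positions. Counted only in the 150 bases before the start, 20 of the 44 genes had a CHR match (45.5%), against 11.0% of tested genes. Both elements were found there in 18 (40.9%), against 3.5% of tested genes.

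**Figure D3:**
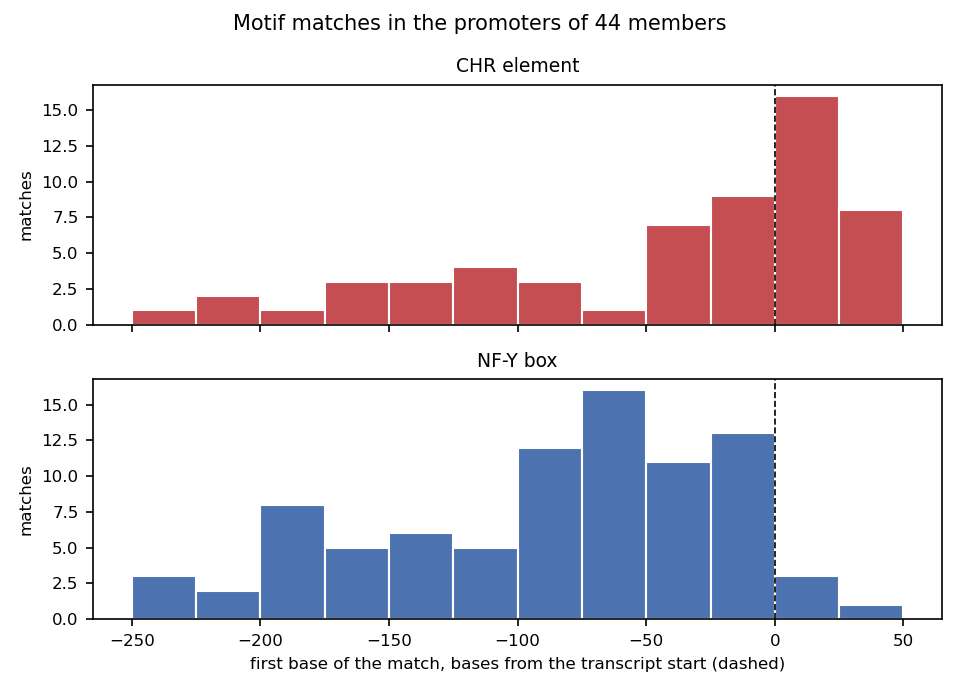
Number of CHR matches (top) and CCAAT matches (bottom, titled NF-Y box) by distance in bases from the transcript start in 47 promoters of 44 mitotic and G2/M genes, in steps of 25 bases. Sites shared by overlapping promoters of a gene are counted more than once. CHR matches gather around the start, with 24 of 58 after it, and CCAAT matches lie mostly before it, with 4 of 85 after it.

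Genes with and without a CHR match both rose. Of the 36 genes with a CHR match, 32 rose, with a median log2 change of 0.46. Kif2c is among them, and the start used for it may, like that of Pttg1, lie inside the gene. Of the 8 without one (Cdc25b, Cks2, Bub1, Mad2l1, Nuf2, Nusap1, Ncaph and Pttg1), 6 rose, with a median of 0.43. Cdc25b and Pttg1 did not pass and had no match, with the start of Pttg1 uncertain. Cenpe, Cenpf, Kif20b and Mki67 did not pass and had one. A match describes letters in the window, not binding.

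Among the kinases, cyclins and their regulators, 10 of 11 genes rose, with a median log2 change of 0.45. Cdk1, the kinase that drives entry into mitosis, measured 16.0, 18.7, 20.9 and 22.9 FPKM in control replicates 1 to 4 and 23.9, 24.6, 26.9 and 30.4 FPKM in Lck-cre replicates 5 to 8. Its mean rose 1.35-fold (log2 change 0.43, SE 0.09, adjusted p = 0.0133). The groups did not overlap, and the female was the lowest sample of each. Ccnb1, the cyclin B1 partner of CDK1, measured 31.2, 41.4, 46.1 and 45.0 FPKM in the controls and 51.5, 54.4, 57.8 and 61.7 FPKM in the Lck-cre samples, in the same order of replicates, which is kept from here on. It rose 1.38-fold (log2 change 0.47, SE 0.08, adjusted p = 0.00818), again with no overlap. Ccnb2, cyclin B2, measured 62.1, 73.6, 87.0 and 77.7 FPKM against 85.0, 90.9, 118 and 101 FPKM. It rose 1.31-fold (adjusted p = 0.0175), although Lck-cre replicate 5 lay just under control replicate 3. Ccna2, cyclin A2, which acts from S phase into early mitosis and had the highest level of this group, measured 69.9, 78.0, 85.6 and 99.4 FPKM against 93.3, 97.6, 114 and 114 FPKM. It rose 1.26-fold (log2 change 0.34, adjusted p = 0.0259), with Lck-cre replicates 5 and 6 under control replicate 4, and with TPM in place of FPKM its adjusted p was 0.054.

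Plk1 and Aurka encode the kinases that mature centrosomes and activate CDK1. Plk1 measured 39.4, 44.7, 51.5 and 53.4 FPKM in the controls and 65.2, 62.8, 72.1 and 90.3 FPKM in the Lck-cre samples, a 1.54-fold rise (log2 change 0.61, SE 0.11, adjusted p = 0.00985). Aurka measured 30.1, 35.2, 39.4 and 43.2 FPKM against 48.9, 47.9, 58.8 and 62.7 FPKM, a 1.48-fold rise (log2 change 0.56, SE 0.10, adjusted p = 0.00932). Neither gene overlapped between groups. The largest change of all 53 genes was that of Cks1b, a small subunit that binds cyclin-dependent kinases. It measured 43.9, 54.1, 65.9 and 58.1 FPKM against 82.9, 80.0, 103 and 91.8 FPKM, a 1.61-fold rise (log2 change 0.69, SE 0.10, adjusted p = 0.0075). Here Lck-cre replicate 7, not 8, was the highest sample. Ccnf, Cdc25c and Cks2 rose with log2 changes of 0.45, 0.53 and 0.41. Cdc25b, a phosphatase that activates CDK1, was the exception of the group and measured 40.4, 42.8, 52.7 and 47.2 FPKM against 47.6, 51.0, 49.9 and 53.6 FPKM. Its log2 change was 0.15 (95% confidence interval -0.02 to 0.31, adjusted p = 0.162), and the groups overlapped. Of the 10 genes that rose, 4 kept the call without either female and 7 without control replicate 2, and 9 or 10 did so without any other single sample.

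**Figure D4:**
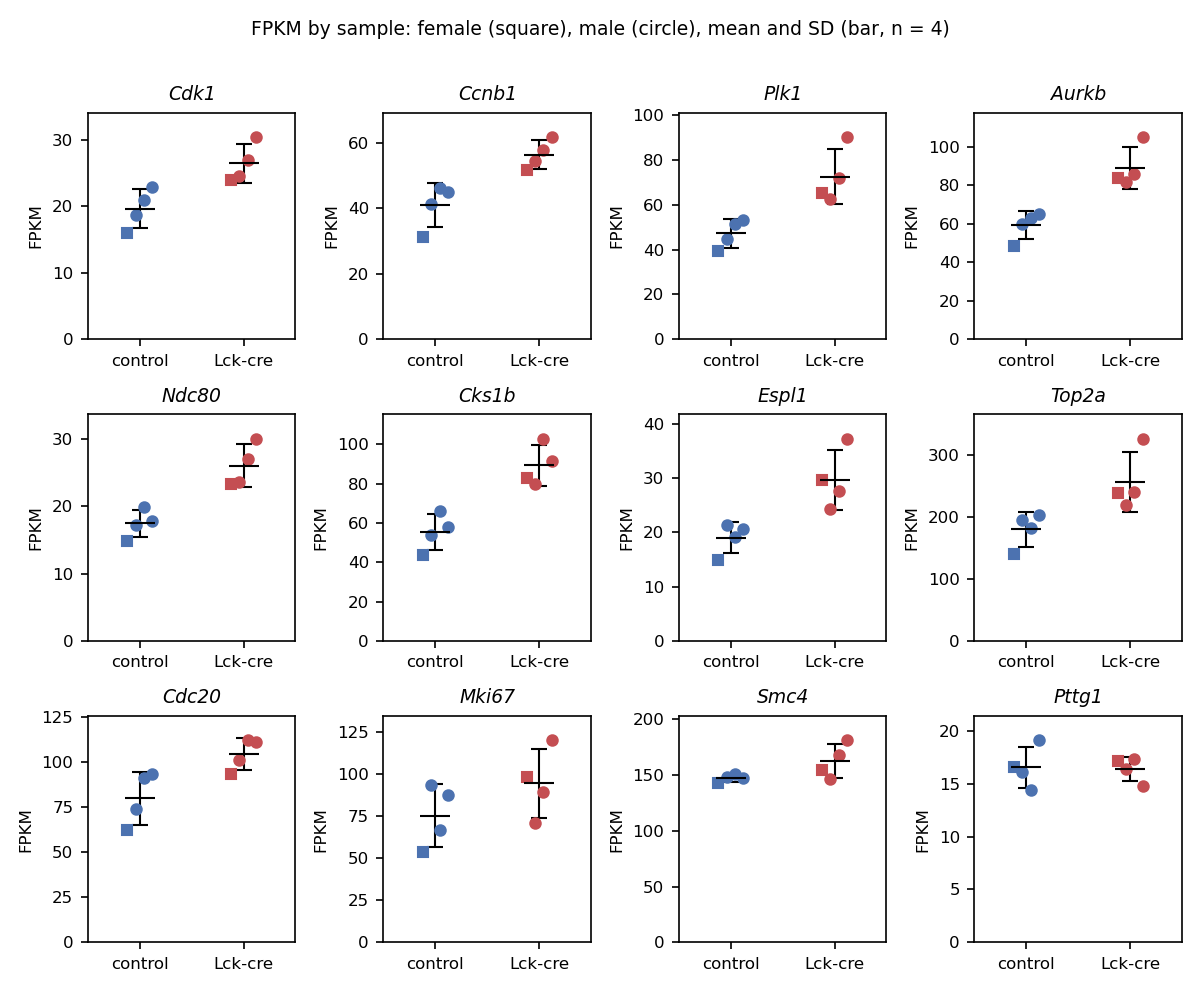
FPKM by sample for 12 of the genes, with controls in blue, Lck-cre samples in red, females as squares, males as circles, and the mean and SD of each group as bars (n = 4). Groups are separate in the first 9 panels, Cdk1 to Cdc20, and overlap for Mki67, Smc4 and Pttg1.

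All 5 spindle checkpoint genes, which hold anaphase until every chromosome is attached, rose in the Lck-cre samples, with a median log2 change of 0.52 and no overlap between groups. Bub1, a checkpoint kinase at the kinetochore, measured 14.8, 19.0, 18.6 and 22.9 FPKM in the controls and 25.1, 24.4, 27.9 and 34.7 FPKM in the Lck-cre samples. It rose 1.49-fold (log2 change 0.56, SE 0.12, adjusted p = 0.0129), the largest change of the 5. Bub3, which recruits BUB1 and BUBR1, measured 59.9, 65.6, 65.6 and 69.8 FPKM against 76.7, 78.4, 81.3 and 83.6 FPKM. Its rise was the smallest of the 5, at 1.23-fold (log2 change 0.29, SE 0.06, adjusted p = 0.0106), and its level was the highest. In proportion to the mean, samples within a group lay closer together for Bub3 than for Bub1. Bub1b, which encodes BUBR1, rose by 0.52, Ttk, the kinase MPS1, by 0.53, and Mad2l1, the MAD2 inhibitor of CDC20, by 0.36 on the log2 scale. Mad2l1 lost the call under quantile normalization (adjusted p = 0.0513) and with TPM (0.0726). Without either female Bub1b alone kept the call, without control replicate 2 there were 4 of 5, and without any other single sample 4 or 5.

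Kinetochore and centromere genes fell into those of the NDC80 complex, which grips the microtubule, and the CENP genes. All 4 subunits of the NDC80 complex rose, with log2 changes of 0.56 for Ndc80, 0.58 for Nuf2, 0.62 for Spc24 and 0.55 for Spc25, and none overlapped between groups. Spc24 measured 23.2, 26.8, 33.0 and 31.3 FPKM in the controls and 38.8, 40.4, 43.5 and 53.5 FPKM in the Lck-cre samples (SE of the log2 change 0.10, adjusted p = 0.00798). These 4 genes kept the call without any one of the 8 samples. Cenpa, the histone H3 variant that marks centromeres, measured 70.1, 70.3, 88.6 and 75.7 FPKM against 83.3, 93.5, 97.7 and 102 FPKM, a 1.23-fold rise (log2 change 0.30, adjusted p = 0.0235). One Lck-cre sample, replicate 5, lay under control replicate 3, and its call was lost on leaving out any one sample other than control replicate 3 and Lck-cre replicate 6 (adjusted p = 0.0725 with the males alone). Cenpf, a large outer kinetochore protein, measured 7.14, 12.6, 9.37 and 11.8 FPKM against 11.7, 9.54, 11.1 and 14.6 FPKM, and its log2 change of 0.21 did not pass (95% confidence interval -0.16 to 0.57, adjusted p = 0.364). Cenpe, a kinetochore motor, went from a control mean of 14.8 ± 2.31 FPKM (SD, n = 4) to 19.6 ± 3.55 FPKM with Lck-cre (n = 4). This log2 change of 0.39 missed the threshold (adjusted p = 0.0607 by limma). In both genes the groups overlapped.

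The 4 genes of the chromosomal passenger complex, which corrects faulty attachments and later guides cytokinesis, rose with a median log2 change of 0.56, and none overlapped between groups. Aurkb, its kinase, measured 48.6, 59.9, 63.0 and 64.9 FPKM in the controls and 83.5, 81.7, 85.9 and 105 FPKM in the Lck-cre samples, a 1.51-fold rise (log2 change 0.59, SE 0.09, adjusted p = 0.0075). Birc5, which encodes survivin, measured 70.5, 78.3, 94.5 and 94.1 FPKM against 114, 107, 139 and 134 FPKM, a 1.46-fold rise (log2 change 0.55, SE 0.10, adjusted p = 0.00994). Incenp, the scaffold, measured 55.5, 67.2, 65.2 and 71.7 FPKM against 84.8, 76.9, 88.1 and 116 FPKM, a 1.41-fold rise (log2 change 0.48, SE 0.12, adjusted p = 0.0197). The changes of the 4 genes lay close together, and Cdca8, which encodes borealin, rose by 0.58. Lck-cre replicate 8 was the highest sample for Aurkb and Incenp, and replicate 7 for Birc5 and Cdca8. Without either female Aurkb and Cdca8 kept the call, without control replicate 2 there were 3 of 4, and without any other single sample all 4.

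All 7 spindle genes rose, with a median log2 change of 0.46 and no overlap. Kif22, a chromosome arm motor and the most highly expressed of the 7, measured 49.9, 60.8, 62.0 and 66.4 FPKM in the controls and 70.9, 70.5, 78.7 and 97.9 FPKM in the Lck-cre samples, a 1.33-fold rise (log2 change 0.40, SE 0.10, adjusted p = 0.0197). Kif2c, a kinesin that shortens microtubules at centromeres, had the largest change. It measured 17.0, 21.4, 22.0 and 25.1 FPKM against 32.2, 28.0, 32.0 and 40.0 FPKM, a 1.54-fold rise (log2 change 0.62, SE 0.12, adjusted p = 0.0109). Hmmr, a spindle assembly factor, had the smallest, at 12.8, 16.7, 17.9 and 17.4 FPKM against 18.2, 19.5, 21.3 and 23.8 FPKM (log2 change 0.35, SE 0.08, adjusted p = 0.0156). Its groups were separated by a small gap, between control replicate 3 and Lck-cre replicate 5. Kif11, the motor that pushes spindle poles apart, rose by 0.46, Tpx2, the activator of Aurora A, by 0.49, Nusap1, a microtubule bundler, by 0.46 and Kif4, a chromokinesin, by 0.51 on the log2 scale. Kif4 overlaps Pdzd11 on the opposite strand, and the mean levels were 17.2 FPKM for Kif4 and 16.4 FPKM for Pdzd11. Whether the counting used strand is not given, so the value of Kif4 is uncertain. None of the 7 kept the call without either female, when their adjusted p with the males alone was 0.053 to 0.0932, 4 kept it without control replicate 2, and all 7 did so without any other single sample.

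Of 7 genes of the central spindle and cytokinesis, 6 rose without overlap, and the median log2 change of the 7 was 0.40. Racgap1, a subunit of centralspindlin, had the highest level, at 47.9, 53.4, 66.5 and 63.5 FPKM in the controls and 68.9, 67.9, 77.1 and 86.8 FPKM in the Lck-cre samples, a 1.30-fold rise (log2 change 0.38, SE 0.10, adjusted p = 0.0232). Kif20a, the kinesin that carries the passenger complex to the midzone, had the largest change, at 24.0, 32.0, 34.5 and 34.3 FPKM against 42.8, 43.3, 46.0 and 53.9 FPKM (log2 change 0.58, SE 0.09, adjusted p = 0.0075). It overlaps Cdc23 on the opposite strand, which had a mean of 27.2 FPKM. Kif20b, another kinesin of cytokinesis, measured 7.83, 10.6, 9.60 and 11.5 FPKM against 12.5, 10.2, 11.0 and 16.2 FPKM, overlapped between groups and did not pass (log2 change 0.31, 95% confidence interval -0.03 to 0.65, adjusted p = 0.147). Prc1, which bundles midzone microtubules, rose by 0.40, Kif23, the centralspindlin motor, by 0.38, Ect2, which activates RhoA, by 0.47 and Anln, the ring scaffold anillin, by 0.52 on the log2 scale. Prc1 was the least firm of these: its adjusted p was 0.0367, and it was 0.0583 under quantile normalization, 0.0759 with TPM and 0.0511 with median-of-ratios scaling. With TPM Kif23 had an adjusted p of 0.0653. Kif20a alone kept the call without either female, 3 of 6 kept it without control replicate 2, and 4 to 6 did so without any other single sample.

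Among 6 genes of condensin I and topoisomerase II, 5 rose without overlap and Smc4 did not pass, with a median log2 change of 0.47. Top2a, the topoisomerase that untangles sister chromatids, had the highest mean level of all 53 genes. It measured 140, 194, 182 and 203 FPKM in the controls and 239, 219, 240 and 326 FPKM in the Lck-cre samples, a 1.42-fold rise (log2 change 0.51, SE 0.13, adjusted p = 0.0219). Ncaph, the kleisin that closes the condensin I ring, measured 33.9, 42.2, 45.2 and 46.6 FPKM against 58.7, 54.0, 66.4 and 72.1 FPKM, a 1.50-fold rise (log2 change 0.58, SE 0.10, adjusted p = 0.00841). Ncapd2, Ncapg and Smc2, the other condensin I subunits apart from Smc4, rose by 0.38, 0.46 and 0.47 on the log2 scale, and with TPM Ncapg had an adjusted p of 0.0511. Smc4, the ATPase partner of SMC2, measured 143, 148, 151 and 147 FPKM against 154, 146, 168 and 181 FPKM. Its level was far above that of Smc2, which had a mean of 25.1 ± 3.50 FPKM in the controls and 35.0 ± 4.80 FPKM with Lck-cre (SD, n = 4 each). The log2 change of Smc4 was 0.13 (95% confidence interval -0.03 to 0.30, adjusted p = 0.203 by limma), and Lck-cre replicate 6 lay within the control range. Without either female Ncaph alone kept the call, without control replicate 2 there were 2 of 5, and without any other single sample 4 or 5.

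Of the 4 genes that act at the exit from mitosis, 3 rose, and the median log2 change of the 4 was 0.38. Cdc20, the activator of the APC/C at anaphase, measured 62.0, 74.0, 90.8 and 93.0 FPKM in the controls and 93.5, 101, 112 and 111 FPKM in the Lck-cre samples, a 1.31-fold rise (log2 change 0.40, SE 0.09, adjusted p = 0.0162). Its groups met almost without a gap, at control replicate 4 and Lck-cre replicate 5, and it overlaps Elovl1, with a mean of 24.8 FPKM, on the opposite strand. Ube2c, the ubiquitin-conjugating enzyme of the APC/C, measured 113.7, 139.8, 180.3 and 146.4 FPKM against 153.4, 184.8, 196.0 and 211.0 FPKM, a 1.28-fold rise (log2 change 0.37, SE 0.09, adjusted p = 0.0198) with overlap. Espl1, which encodes separase, measured 14.9, 21.4, 19.1 and 20.7 FPKM against 29.7, 24.3, 27.6 and 37.3 FPKM, a 1.56-fold rise (log2 change 0.63, SE 0.14, adjusted p = 0.0146) without overlap. Pttg1, which encodes securin, the inhibitor of separase, measured 16.6, 16.1, 14.4 and 19.1 FPKM against 17.1, 16.4, 17.3 and 14.8 FPKM. Its log2 change was -0.01 (95% confidence interval -0.22 to 0.20, adjusted p = 0.954), the only estimate under 0 among the 53 genes. Lck-cre replicate 8, the highest sample in 46 genes, was the lowest of its group here. The difference between the changes of Espl1 and Pttg1 was not tested. None of the 3 genes that rose kept the call without either female, 1 did so without control replicate 2, and 2 or 3 without any other single sample.

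Foxm1 and Mki67 were taken apart as a transcription factor of the mitotic genes and as the usual marker of dividing cells. Foxm1 measured 50.9, 58.1, 57.7 and 62.8 FPKM in the controls and 69.0, 66.9, 68.7 and 93.8 FPKM in the Lck-cre samples, a 1.30-fold rise (log2 change 0.37, SE 0.10, adjusted p = 0.0338). Its groups did not overlap, but its call was lost without any one of the 4 controls or without Lck-cre replicate 5, under quantile normalization (adjusted p = 0.0605) and with TPM (0.0744), and with the males alone its adjusted p was 0.116. Mki67, which coats mitotic chromosomes, measured 53.5, 93.6, 66.5 and 87.2 FPKM against 97.9, 70.9, 89.2 and 120 FPKM. The spread within each group was wide, control replicate 2 lay above Lck-cre replicates 6 and 7, and the log2 change of 0.34 did not pass (SE 0.19, 95% confidence interval -0.09 to 0.76, adjusted p = 0.206).

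Mki67, Cenpf and Cenpe are among the longest transcripts of the 53, and the change of all genes moved with transcript length. By the longest protein-coding transcript in GENCODE, which 99.4% of tested genes had, the median log2 change over all tested genes was 0.09 under 1000 bases, 0.10 from 1000 to 2000, 0.02 from 2000 to 4000, -0.04 from 4000 to 6000 and -0.13 from 6000 bases up. In the same order, 2 of 2, 9 of 10, 22 of 23, 11 of 13 and 2 of 5 mitotic genes rose. In a correction for length that was added after the data had been seen, 48 of the 53 genes passed, when 13.8% of 12267 tested genes rose. Cenpe (log2 change 0.50, adjusted p = 0.0171), Cenpf (0.40, adjusted p = 0.0372) and Mki67 (0.51, adjusted p = 0.0373) then passed, Prc1 no longer did (0.38, adjusted p = 0.0519), and Cdc25b, Kif20b, Smc4 and Pttg1 again did not. With this correction the log2 change of Pttg1 was -0.09 and that of Smc4 0.15. That of Cks1b, the largest in the reported fit, was 0.58, under those of Espl1 (0.70) and Kif2c (0.59). What produced the trend with length was not tested.

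**Figure D5:**
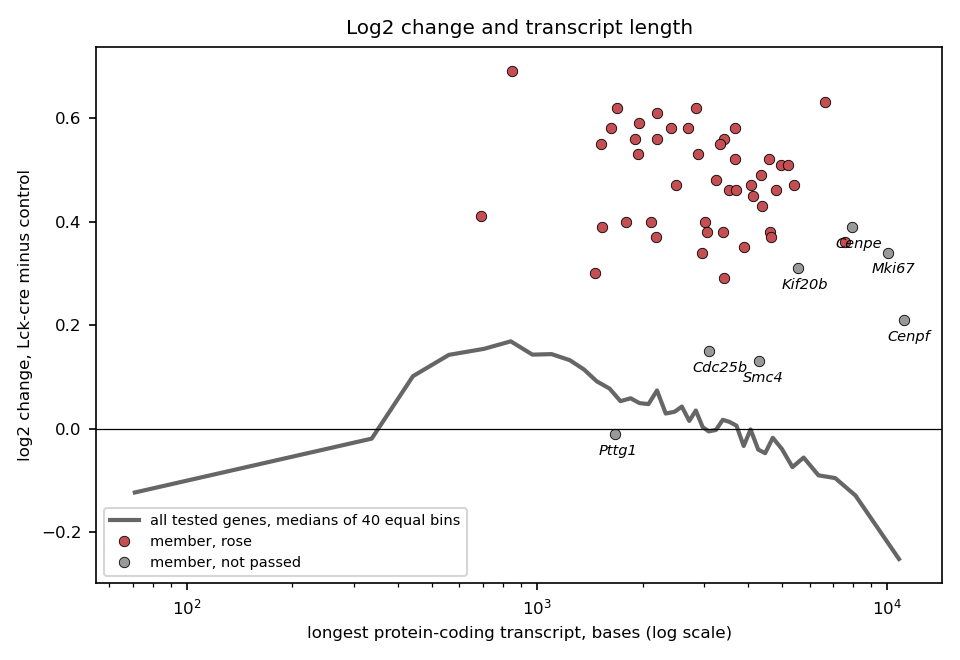
Log2 change (Lck-cre minus control) against the length of the longest protein-coding transcript (log axis, bases), with mitotic genes that rose in red, the 7 that did not pass in grey, and the line giving medians of all tested genes in 40 bins of equal size. The line falls with length, and 3 of the 5 longest mitotic genes did not pass.

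Genes of the same pathways outside the 53 were taken from 7 further lists. Of these 117 genes, 59 rose, 1 fell and 57 did not pass, where 15.4% of all tested genes rose and 10.4% fell. Their median log2 change was 0.29, and 100 of the 117 estimates were above 0. Of 26 other kinetochore genes, 16 rose (median 0.52), with Cenpl at 14.3 ± 1.57 FPKM in the controls and 22.0 ± 1.06 FPKM with Lck-cre and Pmf1 at 41.9 ± 4.67 and 68.1 ± 8.32 FPKM (SD, n = 4 each). Of 25 other spindle and centrosome genes, 14 rose (median 0.39), with Tacc3 at 56.7 ± 7.41 and 81.3 ± 10.3 FPKM and Haus4, a subunit of augmin, at 35.9 ± 2.07 and 47.4 ± 3.80 FPKM. Regulators of mitotic entry and exit rose in 11 of 19 (median 0.36), led by the kinase gene Pbk, at 32.0 ± 4.50 and 51.2 ± 6.71 FPKM, and Trip13, which remodels MAD2, at 4.63 ± 0.667 and 7.68 ± 0.689 FPKM. Of the 3 subunits particular to condensin II, Ncapg2 rose from 24.5 ± 3.18 to 39.1 ± 7.80 FPKM and Ncapd3 from 27.3 ± 1.76 to 33.1 ± 3.55 FPKM, while the remaining one did not pass.

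Cohesin, the APC/C and the DREAM and MuvB complexes made up the other lists, and no difference between lists was tested. Of 15 cohesin genes, 6 rose and 1 fell (median 0.19). Cdca5, which encodes sororin and protects cohesion in G2, rose from 24.7 ± 3.81 to 42.9 ± 4.93 FPKM (log2 change 0.79, adjusted p = 0.00619 by limma), and Esco2, which acetylates cohesin in S phase, from 17.3 ± 2.08 to 26.5 ± 4.66 FPKM. Nipbl, the cohesin loader, which acts throughout the cycle, fell from 44.5 ± 5.99 to 32.9 ± 2.20 FPKM (log2 change -0.42, adjusted p = 0.0174). Its longest transcript has 9423 bases, and the median log2 change of all tested genes from 6000 bases up was -0.13. A length-corrected change of Nipbl is not given. Of 17 subunits and regulators of the APC/C, 5 rose (median 0.16), with the inhibitor Fbxo5 at 42.4 ± 4.91 and 61.2 ± 7.02 FPKM and the activator Fzr1 at 41.1 ± 4.17 and 51.3 ± 4.85 FPKM. Among 12 genes of the DREAM and MuvB complexes, 5 rose (median 0.07). Mybl2, which encodes B-MYB, rose from 17.3 ± 2.14 to 28.7 ± 4.38 FPKM (log2 change 0.71, adjusted p = 0.00798), and Tfdp1, the partner of E2F proteins, from 74.2 ± 5.74 to 107 ± 12.2 FPKM. Without either female 12 genes of the 7 further lists passed, and 3.37% of all tested genes rose with the males alone.

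Replication genes, given for comparison, rose in 28 of 28, where 15.4% of all tested genes rose, with a median log2 change of 0.70. Their calls with the males alone or with a sample left out are not given. Averaged over that list, the log2 level relative to the control mean was -0.22, -0.03, 0.14 and 0.11 in the controls and 0.72, 0.42, 0.72 and 0.87 in the Lck-cre samples. The same average over the 53 mitotic genes was -0.28, 0.03, 0.10 and 0.14, and 0.34, 0.29, 0.46 and 0.69. In both lists control replicate 1 was the lowest sample, replicate 6 the lowest of the Lck-cre samples and replicate 8 the highest. Lck-cre replicate 5 equalled replicate 7 for replication and lay under it for mitosis. The difference between the lists was not tested.

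Stage markers of thymocytes differed between the groups as well. Of 10 DP markers, 4 fell and 0 rose, where 10.4% of all tested genes fell and 15.4% rose. The summed level of the DP markers was 5858 to 6402 FPKM in the controls and 4563 to 5870 FPKM in the Lck-cre samples. Rag1, a recombinase subunit, fell from 802 ± 71.4 to 538 ± 86.2 FPKM, and Rag2 from 68.1 ± 4.82 to 48.0 ± 8.05 FPKM (SD, n = 4 each). The mean log2 level of the DP markers relative to the controls was -0.32, -0.09, -0.25 and -0.44 in Lck-cre replicates 5 to 8, so that replicate 8, with the highest mitotic level, had the lowest marker level, and replicate 6 the reverse. Of 12 markers of double negative and immature single positive cells, 7 were tested and 3 rose (Dtx1, Ptcra and Tfrc), where 15.4% of all tested genes rose. The summed level of the 12 was 103 to 110 FPKM against 117 to 182 FPKM. Cd44 went the other way without passing, from 2.51 ± 0.294 to 1.98 ± 0.352 FPKM (log2 change -0.29, adjusted p = 0.105 by limma), with every Lck-cre sample under every control. Kit, at 0.682 ± 0.174 and 0.649 ± 0.114 FPKM, was not tested. The other untested markers were low and had higher means with Lck-cre. These were Hes1 (0.501 ± 0.237 and 2.06 ± 1.43 FPKM), Il7r (0.212 ± 0.112 and 0.504 ± 0.273 FPKM), Cdh1 (0.0953 ± 0.0473 and 0.407 ± 0.204 FPKM) and Lyl1 (0.418 ± 0.0216 and 0.677 ± 0.0653 FPKM). Groups overlapped for Hes1 and Il7r and not for Cdh1 and Lyl1. Il2ra, Notch1 and Notch3 had log2 changes of 0.65, 0.42 and 0.22 and did not pass. Ptcra, which encodes the alpha chain of the pre-TCR, went up from 29.9 ± 3.49 to 42.4 ± 6.34 FPKM, and Tfrc, a transferrin receptor that dividing cells carry, from 18.3 ± 2.38 to 26.1 ± 5.01 FPKM. Calls of the stage markers with the males alone are not given. The part of these stage markers in the change of the mitotic genes was not tested.

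Markers of other cell types differed in level and direction. The summed level of 8 myeloid and dendritic markers was 3.96 to 4.81 FPKM in the controls and 6.37 to 12.7 FPKM in the Lck-cre samples, with H2-Aa and Cd74 called higher. Itgam, at 2.83 ± 0.366 and 2.77 ± 0.270 FPKM (SD, n = 4 each), did not pass, Lyz2 lay at 0.136 to 0.185 against 0.297 to 0.951 FPKM, and the macrophage genes Csf1r and Adgre1 stayed under 0.1 FPKM in every sample. The 5 NK and innate markers summed to 18.3 to 29.2 against 36.4 to 89.3 FPKM, nearly all of it Gzma, which rose from 21.0 ± 4.99 to 65.5 ± 23.8 FPKM (SD, n = 4 each). Prf1, the only other one tested, went the other way without passing (log2 change -0.67). Klrb1c and Klrd1 stayed under 0.1 FPKM, and Ncr1 was listed at 0 in every sample. Of the B cell genes, Cd79b had 14.3 ± 2.49 and 11.9 ± 3.26 FPKM and did not pass, Cd79a had 0.381 ± 0.063 and 0.344 ± 0.0808 FPKM, and Ms4a1 and Pax5 stayed under 0.1 FPKM. The 5 thymic epithelial markers summed to 3.45 to 5.55 against 3.84 to 5.13 FPKM, nearly all of it Epcam, which alone was tested and did not pass. Krt8 lay at 0.0378 to 0.110 FPKM in the controls and 0.162 to 0.238 FPKM in the Lck-cre samples, without overlap, and Foxn1, Psmb11 and Krt5 also had higher means in the Lck-cre samples, at 0.0426, 0.128 and 0.0427 FPKM against 0.00985, 0.0508 and 0.0124 FPKM, with overlap. The 5 erythroid markers reached a sum of 0.299 FPKM at most. The part of these cells in the mitotic values was not tested.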

How the data were processed

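Per the submitters' processing notes, HISAT and Bowtie2 were used. The sources used here do not give their versions and roles, or the build, annotation, quantifier and strandedness. The deposited tables, 1 per sample, hold FPKM, TPM and mean coverage per base, all computed by the authors per the file headers. Values of entries that share a gene ID were summed. No depth can be given without counts.

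The filter kept genes that reached 1 FPKM in 4 or more samples. On log2(FPKM + 0.5), limma 3.58.1 (R 4.3.3) fitted genotype and sex, with a trended prior of 4.17 degrees of freedom. Tests were two-sided, and adjusted p is Benjamini-Hochberg over all 12337 tested genes, with calls at 0.05. The fit was tested on simulated data. Folds are ratios of mean FPKM, and log2 changes are on the log2(FPKM + 0.5) scale, which understates those of low genes. SDs are over 4 samples. Summaries used Python 3.11.15.

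The 53 genes and all lists were chosen with earlier results of these data known, so no count over a list carries a test. Values by sample are given for 10 key genes and for the highest, the most changed and the least changed gene of each role. Genes that did not pass are given, as are the 2 rising and 2 falling genes with the smallest adjusted p of each further list.

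Alternatives were quantile normalization, TPM, median-of-ratios scaling, pseudocounts of 0.1 and 1, testing every gene above 0 or those with a mean of 1 FPKM, leaving out the sex term, the females or each sample, and an adjusted p under 0.01. A loess correction (span 0.3) for transcript length was added after the data were seen. RefSeq promoters were not used for Ccna2, Cdc25c, Spc24, Aurkb, Incenp, Tpx2, Kif20a, Smc4 and Foxm1, which had no matching entry. Another expressed gene overlapped 15 of the 53 genes, 13 of them on the opposite strand, and without known strandedness their reads cannot be told apart.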

Additional observations from a re-analysis of the deposited data

Results flagged for a closer look

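In 7 of 108 groups of 4 samples, 1 sample stood apart from the other 3 by a gap over Dixon's 95% critical value, and chance gives about 1 in 20 groups. In 5 of the 7 the sample was Lck-cre replicate 8, which lay above its group. It had 87.0 FPKM of Prc1 (others 60.6 to 63.9), 39.2 of Ect2 (29.6 to 31.2), 17.9 of Anln (11.8 to 12.7), 228 of Ncapd2 (177 to 183) and 93.8 of Foxm1 (66.9 to 69.0). The first 3 belong to the central spindle and cytokinesis. In the other two the sample was control replicate 1, the female, which lay under its group, with 21.8 FPKM of Ccnf (others 30.9 to 32.2) and 19.9 FPKM of Smc2 (26.5 to 27.3).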

How the results depend on the processing

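The median log2 change of the 53 genes stayed between 0.39 and 0.54 in every alternative, and no called gene among the 53 reversed. The number of calls moved far more. Of the 53 genes, 46 passed in the reported fit, against 14 at an adjusted p under 0.01, 13 with males only, 15 with no filter, and 13 to 48 when 1 sample was left out. With quantile normalization 43 passed, with TPM 40 and with the length correction, chosen after seeing the data, 48. In turn, 13.9%, 10.5% and 13.8% of all tested genes rose. Over all genes, 3180 passed, against 512 at an adjusted p under 0.01, 615 with males only, 1056 with no filter, and 636 to 3865 with 1 sample left out. Of the 9 role groups, all had at least 50% of their genes called, against 2 at an adjusted p under 0.01, 2 with males only, 2 with no filter, and 2 to 9 with 1 sample left out. In the 7 further lists 60 genes passed, against 11, 12 and 21 in the same order of settings, and 12 to 69 with 1 sample left out. CHR matches were found in 36 genes, and in 20 with only the 150 bases before the start. When 1 female is left out, the sex term absorbs the other, and the fit compares 3 males with 3. No paired analysis was possible because the groups share no replicate number. Depth is unknown, so the precision of low values cannot be given.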
